A study of Mus musculus with 7 samples.

Results

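The genes described here encode nuclear subunits of mitochondrial complexes I to IV, the respiratory chain. They were chosen by a rule on gene symbols that itself uses no measured value, though it was set with earlier results of these data known, and 63 of the 18193 genes with 1 symbol on the array matched: 34 for complex I, 4 for complex II, 8 for complex III and 17 for complex IV. Each gene was read at its brightest probe set over all 7 lenses, a probe set being a group of short probes against 1 transcript. Lens epithelium was compared between mice that lack SPARC (SPARC-null, KO) and their wild-type littermates (WT), all 28 days old, on a C57Bl/6 background and from 1 litter. SPARC is a secreted matrix protein that binds collagen, and the labels do not say which part of its gene is deleted. The 4 KO lenses came from 3 animals (1L and 1R are the left and right lens of animal 1, 4L and 7L are left lenses) and the 3 WT lenses from 3 animals (2L, 5L and 6L). The labels give male for KO animal 7 and female for the other 5 animals. Laser capture was used to collect the epithelium from stained frozen sections, and RNA from every lens went through 2 rounds of amplification and on to an array of its own. The animal was the unit of replication: the mean of 1L and 1R stands for animal 1, with n = 3 per group.

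The respiratory chain passes electrons from NADH (at complex I) and succinate (at complex II) through complex III to complex IV, which reduces oxygen, and complexes I, III and IV pump protons that drive ATP synthesis. Most subunits are encoded in the nucleus and imported. In the lens, mitochondria are kept in the epithelium and in young fibre cells and are lost as fibre cells mature, while the fibre mass relies largely on glycolysis. Complex IV also has subunits with forms restricted to certain tissues, such as the heart and skeletal muscle forms Cox6a2, Cox7a1 and Cox8b.

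No respiratory chain subunit gene passed the test between KO and WT. At an adjusted p of 0.05 in limma 0 of 63 members were called, against 0.0055% of the brightest probe sets of all genes (1 of 18193, Sparc) and 0.00666% of all probe sets (3 of 45037). At an unadjusted p under 0.05 in limma there was 1 member, Uqcrc1, or 1.59%, against 4.12% of all genes and 4.06% of all probe sets. Uqcrc1 was lower in KO, as were 1.82% of all genes at that p. The median log2 difference of the members, KO minus WT, was -0.03, and that of all genes was also -0.03. Values were higher in KO for 28 members (among them Cox7b2, which was not above background) and lower for 35 (55.6%, against 54.2% of all genes). This split rests in part on WT lens 2L: without it 44 members (69.8%) were lower, against 55.5% of all genes, and the median was -0.07 against -0.04. Of the 63 differences 62 were smaller than 0.5 on the log2 scale. The 95% interval of the difference lay within 1 log2 unit of 0, a 2-fold change, for 47 members. For the other 16 it did not, so for those a 2-fold difference lay inside what these animals allow. The limma adjusted p was 0.99988 for every member.

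**Figure D1:**
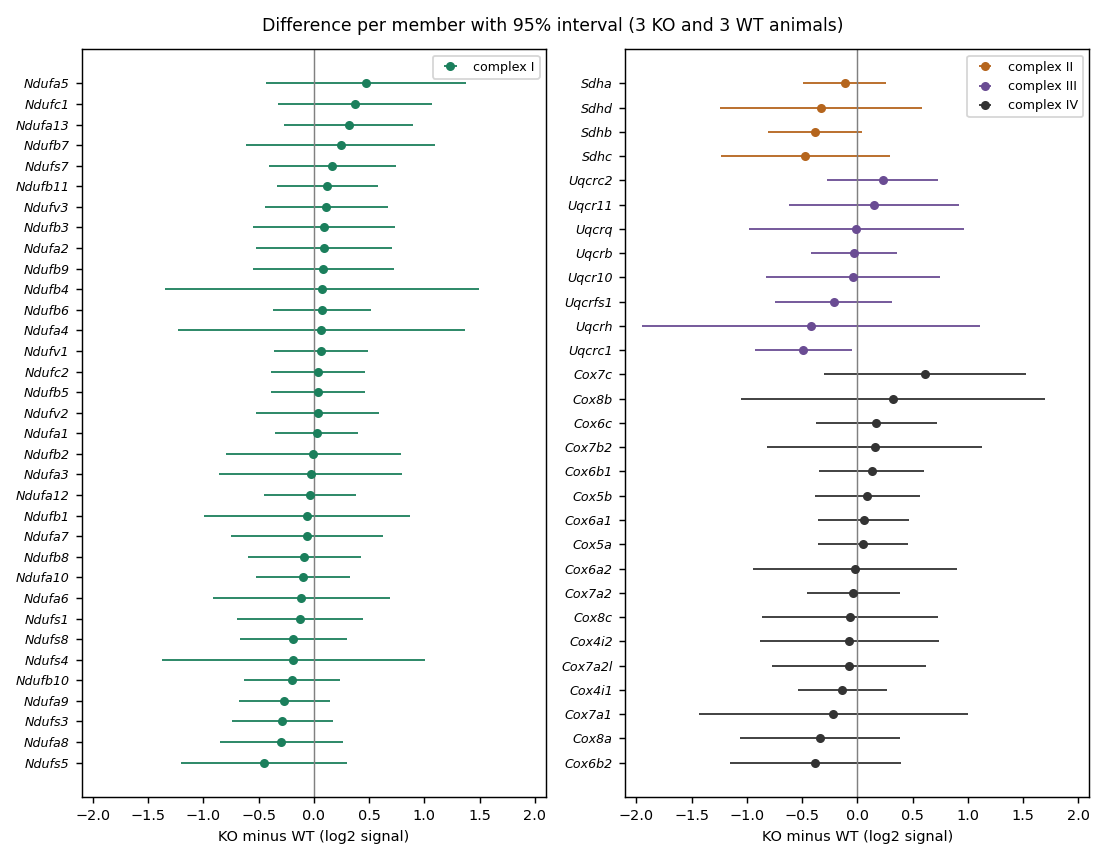
The KO minus WT difference in log2 signal (x axis) is shown for each of the 63 members (rows, grouped by complex), as a point with its 95% interval from limma with 3 animals a group (Cox7b2, not above background, included). All points but that of Cox7c (0.61) lie within 0.5 of 0, and the interval of Uqcrc1 (-0.93 to -0.05) alone leaves out 0.

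The labels and the tissue were checked on the same arrays. Sparc signal at its brightest probe set ranged from 8.14 to 70.5 over KO lenses and from 27371 to 49972 over WT lenses (limma log2 difference -9.94, SE 0.34, adjusted p = 3.41e-06). The highest of 27 bacterial control probe sets, which have no target in mouse RNA, gave 45.5 and served as a gauge of background. Of 12 lens epithelium markers 11 lay above it in every lens, Cryab at 28252 to 51883 and Gja1 at 16276 to 29296, and Foxe3 was at or under it in 4 of 7 lenses. Their signals summed to 104694 to 138884 per KO lens and to 96195 to 135783 per WT lens. Markers of neighbouring tissue were present as well. The 15 skeletal muscle markers lay above the control in all lenses, with a summed signal of 29701 to 90596 in KO and 22719 to 119619 in WT, and the 12 photoreceptor markers summed to 56234 to 93417 and 52174 to 101254. Of the 15 muscle markers 10 were lower in KO (median log2 difference -0.23), and of the 12 photoreceptor markers 10 were lower (median -0.17). The other marker lists also differed in part between the groups. Of 12 macrophage and leukocyte markers 10 were higher in KO (median log2 difference 0.49), and their summed signal of 1880 to 3066 in KO did not overlap that in WT (1011 to 1716). All 8 blood and endothelial markers were higher in KO (median 0.21, sums of 703 to 1110 and 403 to 725), as were 6 of 10 pigment cell markers (median 0.53, sums of 30185 to 57892 and 28981 to 55561). Part of these counts rests on background values. Hba-a1 and Pecam1 (blood) and Aif1 (macrophage) stayed below the bacterial control throughout, so their direction is not resolved. The control was also not exceeded by Emcn in 6 lenses, Slc4a1 in 5 and Alas2 in 4. For Itgam this held in 5 lenses, for Cd68 in 4, for Ptprc in 3 and for the pigment marker Best1 in 6. It also held for C1qa and Cd14 in 2 lenses each, and for C1qb, Tyrobp and Cdh5 in 1 each. C1qa, with the largest macrophage difference (1.61), was at background in WT lenses 5L and 6L. Of 8 corneal and surface epithelium markers 7 were lower (median -1.26, sums of 7558 to 20725 and 14320 to 22904), and all 8 lens fibre markers were lower (median -0.17, sums of 100466 to 135975 and 107033 to 140680). Krt14 of the corneal list (log2 difference -1.56) was at or under the bacterial control in 4 lenses. No marker of these lists passed the adjustment in limma. Which of these cells the members' signals came from was not measured, and fewer cells of a type cannot be told apart from less RNA per cell. The part of these tissues in the members' values was not tested. The 3' to 5' signal ratio of Gapdh, lower in more intact RNA, was 3.75 in WT lens 2L against 9.06 to 15.9 in the other lenses.

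Promoter sequence is shown for the 3 members whose KO lenses all lay below the WT lenses (Uqcrc1, Sdhb and Ndufa9) and for the muscle forms Cox7a1 and Cox8b, whose values are set beside muscle markers in the results on complex IV. Each is the stretch of 150 bases before the annotated start, from RefSeq on GRCm38.p6, 5′ to 3′ on the strand of the gene, with any whole motif match in capitals. The stretches are chr9:108936498-108936647 (plus strand) for Uqcrc1, chr4:140961121-140961270 (plus) for Sdhb, chr6:126849145-126849294 (minus) for Ndufa9, chr7:30184021-30184170 (plus) for Cox7a1 and chr7:140900447-140900596 (minus) for Cox8b. The capitals mark an NRF1 match followed by a CCAAT match in Sdhb and CCAAT matches in Cox7a1.
Uqcrc1: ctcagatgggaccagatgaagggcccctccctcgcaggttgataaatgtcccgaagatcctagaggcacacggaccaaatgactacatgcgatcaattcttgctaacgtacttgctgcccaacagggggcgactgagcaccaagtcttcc
Sdhb: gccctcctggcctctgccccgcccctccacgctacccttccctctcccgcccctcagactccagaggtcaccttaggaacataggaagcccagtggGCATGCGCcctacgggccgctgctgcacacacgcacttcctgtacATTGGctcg
Ndufa9: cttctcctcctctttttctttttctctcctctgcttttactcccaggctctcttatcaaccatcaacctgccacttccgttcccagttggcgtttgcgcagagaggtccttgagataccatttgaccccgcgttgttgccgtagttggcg
Cox7a1: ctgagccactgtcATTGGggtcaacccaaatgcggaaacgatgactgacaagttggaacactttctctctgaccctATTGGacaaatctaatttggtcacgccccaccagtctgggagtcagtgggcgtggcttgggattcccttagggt
Cox8b: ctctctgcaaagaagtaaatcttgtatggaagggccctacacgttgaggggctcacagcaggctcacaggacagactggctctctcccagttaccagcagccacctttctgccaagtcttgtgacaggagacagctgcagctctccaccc

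NRF1 and the ETS factor GABP are known activators of respiratory chain genes. In windows of 300 bases (250 before and 50 after the start) RefSeq gave a promoter for 51 of the 63 members and for 27025 genes in all. On both strands, the NRF1 letters GCGCATGC were found for 6 members (11.8%) and 3.05% of all genes. The ETS letters CCGGAAG were found for 11 members (21.6%) and 9.93% of all genes, and the YY1 letters AAGATGGC for 6 members (11.8%) and 3.19%. The CCAAT box stood in 37.3% of members and 41.1% of all genes, and TATAAA in 11.8% and 15.7%. Some of these matches lay at least partly outside the printed stretches, namely NRF1 for Uqcrc1, YY1 for Ndufa9, TATAAA for Cox8b and ETS for Sdhb. A stretch printed without capitals can thus belong to a window with a match. The motifs were searched one by one, and no pair of them shares its full letters. A match describes these letters only.

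Complex I takes electrons from NADH in its matrix arm and pumps protons through its membrane arm. Its 34 members split into 18 with higher and 16 with lower values in KO. Their median log2 difference was 0.03, which became -0.06 with median centring of the arrays. Of the core matrix-arm subunits, which hold the flavin and iron-sulfur clusters or their surroundings, 6 were measured. At their brightest probe sets 3 were higher and 3 lower (median -0.05). Ndufs3, a core subunit near the quinone site, had deposited signals of 4389, 2898, 3448 and 2679 in KO lenses 1L, 1R, 4L and 7L and 4353, 3613 and 3638 in WT lenses 2L, 5L and 6L. Only 1L among the KO lenses reached the WT range, and the other KO lenses lay below it (log2 difference -0.29, SE 0.20, limma unadjusted p = 0.193). Ndufs1, the largest iron-sulfur subunit, ranged from 1624 to 3048 over the KO lenses, which reached both sides of the WT range (2152 to 3022). Ndufv1, which binds NADH and flavin, had a log2 signal of 12.14 ± 0.23 in KO animals and 12.07 ± 0.09 in WT animals (SD, n = 3). Ndufv2, its iron-sulfur partner, was at 12.96 ± 0.16 and 12.92 ± 0.48. For Ndufs7 and Ndufs8, which carry the clusters next to the quinone, the log2 differences were 0.17 (SE 0.26) and -0.19 (SE 0.22). The groups overlapped for all 6 core subunits at these probe sets. Each of the 3 higher ones had another probe set that was lower in KO. The log2 differences there were -0.38 (SE 0.26) for Ndufs7, -0.39 (SE 0.22) for Ndufv2 and -0.20 (SE 0.21) for Ndufv1. A further probe set was at 0.02 for Ndufv2 and 0.04 for Ndufv1, so the split depends on the probe set read.

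Among the accessory subunits, Ndufa9 was the one whose KO lenses all lay below the WT lenses. It sits at the junction of the matrix and membrane arms. Its signals were 3336, 3056, 3743 and 3652 in KO lenses 1L, 1R, 4L and 7L and 4586, 4067 and 4082 in WT lenses 2L, 5L and 6L. The gap between the highest KO and the lowest WT lens was small, and the log2 difference of -0.27 (SE 0.18) did not pass in limma (unadjusted p = 0.175). Ndufa5, another matrix-arm subunit, ranged from 3883 to 9101 over the KO lenses and from 2014 to 6362 over the WT lenses. The low end of WT was lens 2L, and without it the log2 difference turned from 0.47 to -0.05. Ndufc1 and Ndufa13, both of the membrane arm, likewise had their lowest signal in 2L, at 5439.6 (6 other lenses 7108 to 16142) and 8456 (14903 to 27235). Their log2 differences were 0.37 (SE 0.31) and 0.32 (SE 0.26), and without 2L they were 0.09 and 0.02. For Ndufs5, an accessory subunit of the membrane arm, the KO signals of 277 to 1006 spanned the WT signals of 471 to 747 (log2 difference -0.45, SE 0.34). Ndufa8, also of the membrane arm, had KO signals of 1496 to 3545 and WT signals of 2064 to 3616 (log2 difference -0.29, SE 0.25). Ndufa1, a small membrane-arm subunit, had one of the narrowest spreads, with a log2 signal of 14.92 ± 0.05 in KO animals and 14.90 ± 0.02 in WT animals (SD, n = 3). Its deposited signals ran from 20112 in 2L to 36318 in 1R, near the top of the arrays, where differences are less well resolved. Ndufa4, named for complex I and since assigned to complex IV, ranged more widely within each group (1683 to 7799 in KO, 1668 to 6892 in WT) than between them (log2 difference 0.07, SE 0.58). Ndufb4 did not exceed the highest bacterial control in 1 KO and 2 WT lenses.

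Complex II, succinate dehydrogenase, is shared with the tricarboxylic acid cycle and is the complex with all of its subunits encoded in the nucleus. All 4 of its members had a lower KO than WT mean at the brightest probe set (median log2 difference -0.36), and 0 of 4 passed in limma, adjusted or unadjusted. At the next brightest probe set the difference was -0.004 (SE 0.26) for Sdha, -0.02 (SE 0.36) for Sdhd and -0.41 (SE 0.25) for Sdhc. Sdhb, the iron-sulfur subunit, had signals of 10642, 8479, 11112 and 8783 in KO lenses 1L, 1R, 4L and 7L and 11878, 12424 and 12541 in WT lenses 2L, 5L and 6L. Every KO lens was below every WT lens. Its log2 signal was 13.25 ± 0.06 in KO animals and 13.64 ± 0.24 in WT animals (SD, n = 3; difference -0.38, SE 0.19, limma unadjusted p = 0.0715). For Sdha, the flavoprotein that oxidises succinate, the signals were 5850.5, 6744, 6295 and 6378 in KO and 6189, 7470.0 and 6979 in WT. The groups overlapped (log2 difference -0.12, SE 0.17). Sdhc and Sdhd anchor the enzyme in the membrane. For Sdhc, KO signals of 603 to 1965 overlapped WT signals of 920 to 1941 (log2 difference -0.47, SE 0.34). Sdhd was at 908, 710, 729 and 584 in KO and 1947, 588 and 584 in WT, so that its higher WT mean came from lens 2L. Without 2L the Sdhd difference was 0.21 and the median of complex II -0.17. The median was also nearer 0 without KO animal 7 (-0.18) and with array weights (-0.17), and farther from 0 without WT animal 6 (-0.52) or 5 (-0.46).

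**Figure D2:**
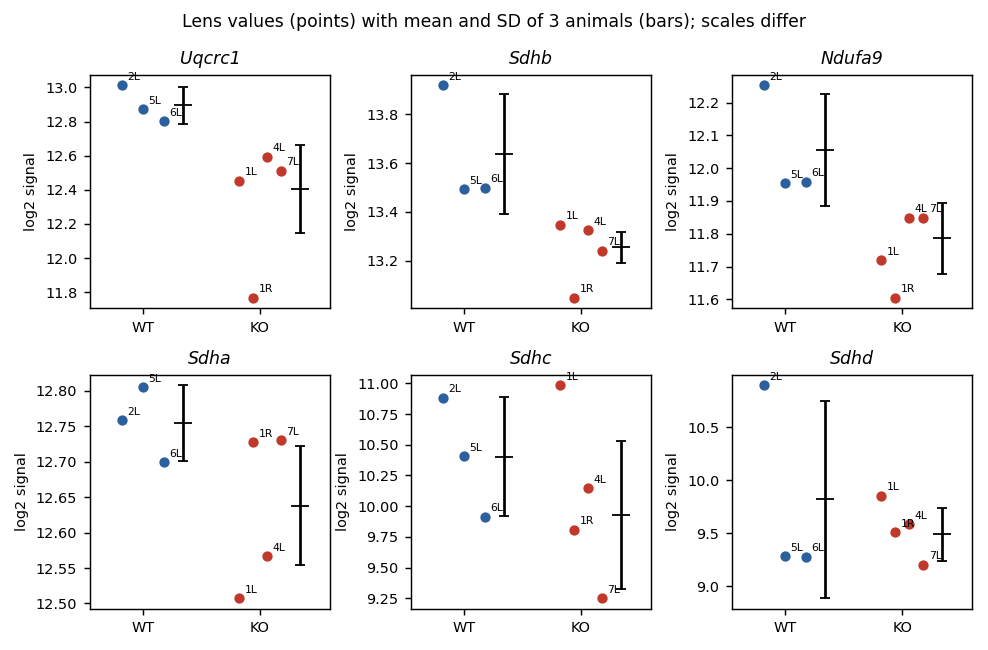
Log2 signal (y axis, with its own scale in each panel) of Uqcrc1, Sdhb, Ndufa9, Sdha, Sdhc and Sdhd in each lens (points, WT blue and KO red, named by animal and eye), with the mean and SD of the 3 animals of each group beside them. KO and WT lenses separate for Uqcrc1, Sdhb and Ndufa9 and overlap for the other members, and 2L is the highest of all lenses for Sdhd.

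Complex III oxidises ubiquinol and passes the electrons to cytochrome c. Of its 8 members 2 had higher and 6 lower values (median log2 difference -0.03). The median was 0.32 without KO animal 7 and -0.22 without KO animal 1, so its direction is not resolved. Uqcrc1, a core protein on the matrix side, had signals of 5620.2, 3421, 6423 and 5589 in KO lenses 1L, 1R, 4L and 7L and 7128, 7909.9 and 7492 in WT lenses 2L, 5L and 6L. All 4 KO lenses were below all 3 WT lenses, and 1R was the lowest. Its log2 signal was 12.41 ± 0.26 in KO animals and 12.90 ± 0.11 in WT animals (SD, n = 3; difference -0.49, SE 0.20, 95% interval -0.93 to -0.05, a level 1.40-fold higher in WT). This gave the smallest limma p of the members (unadjusted 0.0316) and an adjusted p of 0.99988. No member had an unadjusted p under 0.05 in limma without KO animal 1, without WT animal 5 or 6, with the left lens of animal 1 alone, with the signals as deposited or with no intensity trend. Uqcrc2, the other core protein, differed by 0.23 (SE 0.22), with 2L lowest at 5876 and the other 6 lenses at 9413 to 12138. The other Uqcrc2 probe set differed by -0.27 (SE 0.22), so its probe sets disagree in direction. Uqcrfs1, the Rieske iron-sulfur protein, was at 2896 to 3289 in KO lenses and at 4900.4, 3247 and 2961 in WT lenses. The KO lenses were close together and 2L lay above the rest (log2 difference -0.22, SE 0.24). Uqcrb, a small subunit that binds ubiquinone, had a log2 signal of 15.13 ± 0.11 in KO animals and 15.16 ± 0.06 in WT animals (SD, n = 3), near the top of the arrays. Uqcrh, the hinge protein, had the widest interval of the members (-1.95 to 1.11), with signals from 687 in 7L to 6473 in 1L within KO alone.

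In all, 3 of 63 members (4.76%) had KO lenses entirely below WT lenses and 0 had them entirely above. Among all genes the shares were 2.94% below and 2.54% above (5.48% either way), so the members' share lies near the background. The log2 difference of Uqcrc1 stayed between -0.60 and -0.34 under the alternative settings, that of Sdhb between -0.45 and -0.25 and that of Ndufa9 between -0.36 and -0.17, and none of them passed the adjustment under any of these.

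Complex IV, cytochrome c oxidase, transfers the electrons to oxygen. The KO mean was the higher one for 8 of its 17 members and the lower one for 9, and the median log2 difference was -0.02. Cox7b2, at or under background in every lens, is 1 of the 8, and without it 7 of 16 were higher. Among the 9 widely expressed subunits 6 were higher and 3 lower (median 0.06). The log2 signal of Cox4i1, the regulatory subunit of most tissues, was 13.52 ± 0.17 in KO animals and 13.65 ± 0.10 in WT animals (SD, n = 3). Cox6a1 was at 14.60 ± 0.11 and 14.55 ± 0.19, Cox7a2 at 14.49 ± 0.22 and 14.52 ± 0.08, and Cox6b1, which faces cytochrome c, at 14.05 ± 0.23 and 13.92 ± 0.28. At these brightest probe sets the 95% intervals ran from -0.54 at the lowest to 0.60 at the highest, which leaves out a 2-fold difference there. Signals of Cox6a1 and Cox7a2 were high, where differences are less well resolved. Less bright probe sets had larger SE, at -0.29 (SE 0.32) for Cox6a1, -0.20 (SE 0.36) for Cox7a2 and -0.21 (SE 0.33) for Cox6b1. A 2-fold difference is thus not left out for these genes as a whole. For Cox8a the KO lenses (2466 to 6965) spanned the WT lenses (4876 to 6116), with 7L the lowest of all lenses (log2 difference -0.34, SE 0.32). Cox7c had the largest difference of all members (0.61, SE 0.41, limma unadjusted p = 0.166). Its signals were 207, 385, 243 and 411 in KO and 385, 152 and 112 in WT, so 2L lay among the KO lenses. The difference was 1.03 without WT animal 2 and 0.29 without WT animal 6. Cox7a2l, which the symbol rule includes, is known as an assembly factor of supercomplexes and differed by -0.08 (SE 0.31).

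Of the 7 tissue-restricted forms of complex IV, Cox7b2 did not exceed the highest bacterial control in any lens, and no direction is given for it. Of the other 6 forms 5 had lower values in KO and 1 higher (median log2 difference -0.07). These forms had wide spreads within each group. Cox7a1, the heart and skeletal muscle form of subunit VIIa, was at 1148, 576, 256 and 194 in KO lenses 1L, 1R, 4L and 7L and at 794, 353 and 226 in WT lenses 2L, 5L and 6L. Cox8b, a muscle form of subunit VIII, was at 646, 347, 235 and 126 in KO and at 486, 179 and 73.5 in WT. For both genes 1L, 2L and 1R were the 3 highest lenses. Cox6a2, the muscle form of subunit VIa, was highest in 1L (3034) and 2L (2581) and at 710 to 1322 in the other 5 lenses. The log2 differences of the muscle forms were -0.22 (SE 0.54) for Cox7a1, 0.32 (SE 0.61) for Cox8b and -0.02 (SE 0.41) for Cox6a2. The median of the 15 skeletal muscle markers, as log2 signal minus the mean of the animals, was 1.84 in 2L, 0.96 in 1L, 0.26 in 1R, 0.14 in 7L, -0.11 in 5L, -0.89 in 4L and -1.30 in 6L. 13 of the 15 markers had their highest value in 2L. In 7L, where the muscle markers were near their mean, Cox7a1 was at its lowest and Cox8b at its second lowest value by signal. The part of muscle RNA in these subunits was not tested.

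**Figure D3:**
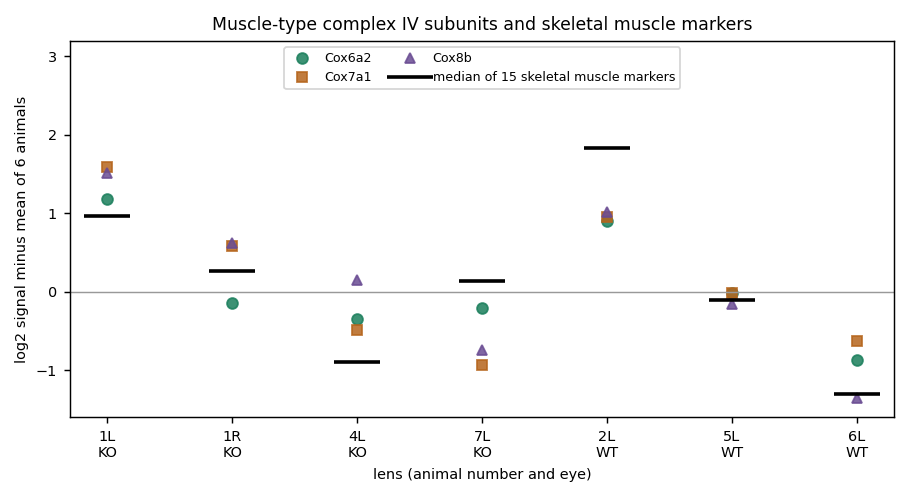
Log2 signal minus the mean of the 6 animals (y axis) of Cox6a2, Cox7a1 and Cox8b (symbols) and the median of 15 skeletal muscle markers (bars) in each lens (x axis, KO then WT). The muscle forms are highest in 1L and 2L, where the marker medians are 0.96 and 1.84, and no group stands above the other.

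Of the remaining tissue-restricted forms, Cox4i2, a form linked to lung and to low oxygen, had signals of 58.3 to 113 over the KO lenses and 71.6 to 107 over the WT lenses, above the highest bacterial control throughout. Its log2 difference was -0.07 (SE 0.36). Cox6b2 and Cox8c, known from testis, were at 145 to 528 and 162 to 261 in KO and at 202 to 368 and 150 to 299 in WT. Cox6b2 differed by -0.38 (SE 0.35) and Cox8c by -0.07 (SE 0.36).

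The median of the members varied between lenses of the same group. Relative to the mean of the 6 animals, the median member lay 0.35 higher in KO lens 1L on the log2 scale, -0.05 in 1R, 0.11 in 4L and -0.27 in 7L, and -0.09, 0.10 and 0.04 in WT lenses 2L, 5L and 6L. The highest and the lowest lens were thus both KO lenses. For 34 of 63 members the highest of all lenses was 1L, and for 27 the lowest was 7L. In all genes together these medians stayed between -0.04 and 0.03, but quantile normalization holds them near 0. ATP synthase genes shared the highest and the lowest lens of the members, with 10 of 15 highest in 1L and 10 lowest in 7L. The rest of the order differed, since their median in 2L was 0.16, against -0.09 for the members. The trimmed mean signal of the deposited arrays was 500.003 to 500.004.

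**Figure D4:**
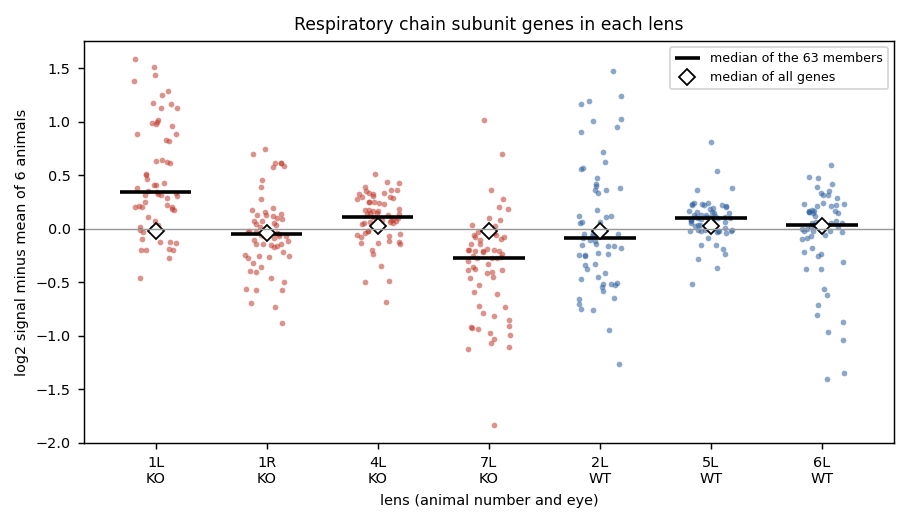
Log2 signal minus the mean of the 6 animals (y axis) for each of the 63 members (points) in each lens (x axis, KO red, WT blue), with the median of the members (bar) and of all 18193 genes (diamond). The bar is highest in 1L (0.35) and lowest in 7L (-0.27), both KO lenses. The diamonds stay near 0, where quantile normalization holds them.

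The lenses of KO animal 1 share genotype, animal and age, so they show the spread that a single animal can give. 54 of 63 members (85.7%) were higher in 1L than in 1R, with a median log2 difference between the eyes of 0.49. Over all genes 52.2% were higher in 1L, with a median of 0.03, which the scaling of the arrays holds near 0. The gap was not particular to the members. Its median was 0.56 for ATP synthase genes (12 of 15 higher in 1L). For skeletal muscle markers it was 0.60 (11 of 15) and for photoreceptor markers 0.60 (11 of 12). Lens epithelium markers went the other way (-0.49, 2 of 12 higher in 1L), as did lens fibre markers (-0.33, 2 of 8). The gap was 0.57 for the members with median centring and 0.55 with the signals as deposited. Ndufa3, a membrane-arm subunit of complex I, was at 19464 in 1L and 6657 in 1R, and Ndufb3, another, at 7606 and 2943. Cox6a1 (27326 and 27341) and Uqcrc2 (10481 and 10469.7) did not share this gap. The absolute difference between the eyes exceeded that between KO and WT for 55 members (87.3%), and for 70.1% of all genes. The eye difference is taken between single lenses, and that between KO and WT between means of several animals. Single lenses vary more than means, so these shares do not show that the eyes differ more than the groups. With 1 animal this has no replicate check and no test was made.

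**Figure D5:**
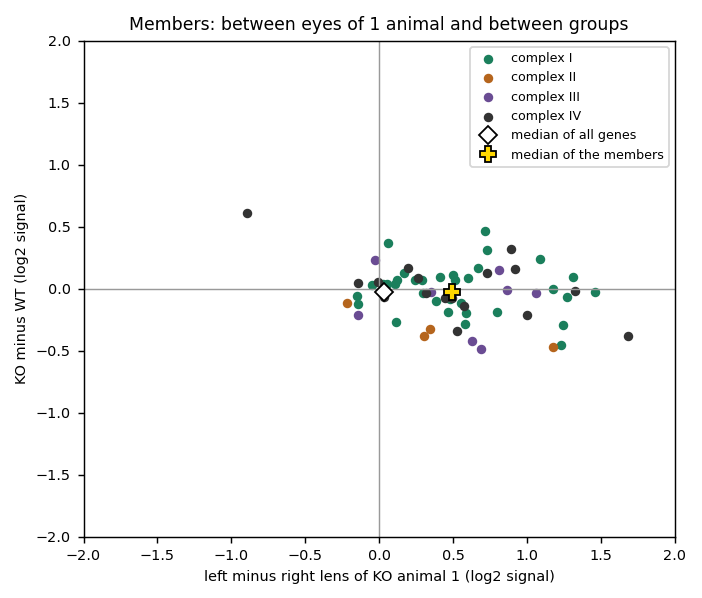
For each member (points, coloured by complex) the log2 difference between the left and the right lens of KO animal 1 (x axis) is plotted against KO minus WT (y axis), on equal scales. Most points lie to the right of 0 (median 0.49, cross) and close to 0 in height (median -0.03). The median of all genes (diamond) is near 0 on both axes, where the scaling of the arrays holds it.

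A further 69 probe sets stood for 38 of the members, and 25 members had a single probe set. Of these other probe sets 22 were higher and 47 lower in KO (68.1% lower, against 52.2% of the other probe sets of all genes), with a median log2 difference of -0.17 against -0.02. Not one reached an unadjusted p of 0.05 in limma (0 of 69). The nearest was a probe set of Ndufs8 at -0.54 (SE 0.24, limma unadjusted p = 0.05003, adjusted 0.99988), and all 6 Ndufs8 probe sets lay between -0.54 and -0.17. In 7L the median of the other probe sets was -0.53 and in 1L 0.51, so they had the same order of KO lenses as the brightest ones. Probe sets of 1 gene share their RNA and are not replicates.

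Genes that work beside the subunits were read from lists in the same fit. Of 15 ATP synthase genes 4 were higher and 11 lower (median log2 difference -0.10), with 0 at an unadjusted p under 0.05 in limma. Atp5c1, the gamma subunit of the rotor, had a log2 signal of 14.12 ± 0.26 in KO animals and 14.36 ± 0.12 in WT animals (SD, n = 3). Atp5g2 and Atp5g1, copies of the ring subunit c, differed by -0.50 (SE 0.36) and -0.31 (SE 0.33). Of 39 assembly factors and electron carriers 10 were higher and 29 lower (74.4%, against 54.2% of all genes), with a median of -0.18. This list also counts Cyc1 (-0.23, SE 0.23) and Ndufab1 (-0.27, SE 0.37). They are known as subunits of complexes III and I, but the symbol rule does not match them. Of the 39, 2 were lower with an unadjusted p under 0.05 in limma (5.13%, against 1.82% of all genes). One was Uqcc1, which helps to make cytochrome b (log2 difference -0.69, SE 0.25, limma unadjusted p = 0.0191, adjusted 0.99988). The other was Bcs1l, which inserts the Rieske protein into complex III (-0.53, SE 0.23, limma unadjusted p = 0.0435, adjusted 0.99988). For Nubpl, an iron-sulfur factor of complex I, the difference was -0.48 (SE 0.23). Of the 39, 4 had every KO lens below every WT lens on the log2 scale, Bcs1l, Nubpl, Ndufaf5 and Ndufaf6 (10.3%, against 2.94% of all genes). Uqcc1 was not among them. The median of this list ranged from -0.26 to -0.05 under the alternatives. No gene of these lists passed the adjustment in limma, against 0.0055% of all genes.

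Of 15 regulators of mitochondrial gene expression 4 were higher and 11 lower (median log2 difference -0.14), and 0 had an unadjusted p under 0.05 in limma. Ppargc1a, the coactivator of mitochondrial biogenesis, had a log2 signal of 9.99 ± 0.19 in KO animals and 9.53 ± 0.51 in WT animals (SD, n = 3). Pprc1, a coactivator related to Ppargc1a, had every KO lens above every WT lens on the normalized log2 scale (difference 0.23, SE 0.23), as had 2.54% of all genes. By deposited signal its groups overlapped, since WT lens 2L (540.3) exceeded KO lenses 1R (533.1) and 7L (539.5). Tfb2m, a factor of mitochondrial transcription, differed by -0.37 (SE 0.27), and Mterf1a, a termination factor, by -0.85 (SE 0.41). Of 16 genes of the tricarboxylic acid cycle and pyruvate dehydrogenase 5 were higher and 11 lower (median -0.12). Suclg2, a subunit of succinyl-CoA synthetase, was at 12.11 ± 0.05 in KO and 12.49 ± 0.02 in WT. Its log2 difference was -0.38 (SE 0.17, limma unadjusted p = 0.0487), and each KO lens lay below each WT lens. On the normalized log2 scale this also held for Suclg1, its partner subunit (-0.26, SE 0.18). The deposited Suclg1 signals overlapped, with KO lens 1L at 4183 and WT lens 2L at 4050. These 2 of 16 genes (12.5%) stand against 2.94% of all genes. Suclg2 alone of the 16 was lower at an unadjusted p under 0.05 in limma (6.25%, against 1.82% of all genes). Pdhb and Idh3g differed by -0.36 (SE 0.22) and -0.31 (SE 0.19). Of 13 glycolysis genes, which supply much of the ATP of the lens, 6 were higher and 7 lower (median -0.12). Hk2, a hexokinase, differed by -0.35 (SE 0.19), Pfkl, a phosphofructokinase, by -0.39 (SE 0.22) and Ldhb, a lactate dehydrogenase, by 0.48 (SE 0.27). All KO lenses lay below the WT lenses for Hk2, 1 of the 13 (7.69%, against 2.94% of all genes). Cytosolic ribosomal protein genes are housekeeping genes like the members, and 45 were measured. Their median log2 difference was -0.07, and that between 1L and 1R was 0.26, with 75.6% higher in 1L. ND5, a complex I subunit encoded in the mitochondrial genome and no member, had KO signals of 15861 to 32489 and WT signals of 18521 to 24063 (log2 difference -0.03, SE 0.31). It was looked up after the members had been seen.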

How the data were processed

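The deposited values are linear intensity values, 1 signal per probe set and lens, as the authors' array software gave them. That software, its background correction and the exact scaling are not stated in the labels. Every array had the same trimmed mean. Per the labels' protocols, laser-captured RNA was amplified in 2 rounds, which favours probe sets near the 3' end of transcripts.

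Of 45101 probe sets, 64 controls were left out and the other 45037 kept without a filter. Signals became log2(signal + 16) and were quantile normalized between arrays, and the lenses of animal 1 were averaged. Log2 differences of weak probe sets are therefore too small. The 3 KO and 3 WT animals were compared in R 4.3.3 with limma 3.58.1 (lmFit, then eBayes with an intensity trend). The test was two-sided, and p-values were adjusted by Benjamini-Hochberg across every probe set kept. SE and intervals come from that fit. The code was tested on simulated data.

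Gene names are those of the platform annotation: 34945 probe sets carry a single symbol, 932 more than one, and 9160 no symbol. Subunits measured only by probe sets with several symbols were not used here. Members were the symbols starting with Nduf (then a, b, c, s or v and a number), Sdh (a to d), Uqcr or Cox (numbered 4 to 8). Members and lists were chosen with earlier results of these data known. The text names the 12 members with the smallest p, complex II, core complex I subunits, the brightest 2 members of each complex, the complex IV forms, members whose groups do not overlap, and the leading 3 genes of each pathway list. Members that show the spread between lenses or eyes, those that need a remark on the rule or on background, and Ndufaf5, Ndufaf6, Pprc1 and Suclg1 were named after their values were seen. The number of arrays limits the precision. Alternatives were all 7 lenses taken as independent, a single lens of animal 1, other scalings, pseudocounts of 1 and 64, a filter on low values (60 of 63 members passed), no trend, array weights, an adjusted p of 0.1, the mean of all probe sets and leaving out each animal.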

Additional observations from a re-analysis of the deposited data

Results flagged for a closer look

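In the 4 KO lenses, a member was marked where 1 lens lay far from the others, the gap to its nearest neighbour over the whole range being above the 95% critical value of Dixon's test. Of 63 members 3 were marked, and chance marks about 5% where the values are independent, which 1L and 1R of the same animal are not. For Cox4i1 the lens 1L was at 13.997 on the log2 scale and the next lens at 13.453 (ratio 0.8858). For Cox6a2 the lens 1L was at 11.599 and the next at 10.276 (ratio 0.8673). For Uqcrc1 the lens 1R was at 11.767 and the next at 12.454 (ratio 0.8291), just above that critical value.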

How the results depend on the processing

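Under every alternative run, 0 members passed the adjusted threshold in limma, 0 to 2 had an unadjusted p under 0.05, and the median difference of the members lay between -0.105 and 0.1229, within the spread between animals. All probe sets past the threshold numbered 2 or 3 at an adjusted p of 0.05. Of 814 values for 48 named genes, 764 kept their direction and 50, in 19 genes, did not. None of these genes passed the adjustment in either direction (lowest adjusted p 0.63772 in limma), and the cause was not tested. With 3 animals a group, small differences are not resolved, and signals near the top of the arrays or near the bacterial controls are resolved least.

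The log2 differences that turned were as follows, those of Cox7b2 being of a probe set not above background. With the 7 lenses as independent samples, Ndufv2 was at -0.003, Cox7a2 at 0.0019, Cox6a2 at 0.1103 and Cox7a1 at 0.0824. With the left lens of animal 1 alone, Uqcrb was at 0.0278, Cox7a2 at 0.0158, Cox4i2 at 0.0024, Cox6a2 at 0.1991 and Atp5g1 at 0.0076. With median centring, Ndufv1 was at -0.0399, Ndufv2 at -0.0996 and Cox6a1 at -0.016. With the signals as deposited, Ndufv2 was at -0.0062, Uqcrb at 0.0759 and Cox4i2 at 0.0292. With array weights, Ndufv1 was at -0.0128, Ndufv2 at -0.0962, Cox7a2 at 0.0198, Cox6a2 at 0.2735, Cox7a1 at 0.395 and Cox7b2 at -0.0397.

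Leaving out each animal in turn gave -0.0466 to 0.7563 for Ndufa5, -0.5949 to 0.2072 for Sdhd, -0.3395 to 0.0913 for Ndufs1, -0.0271 to 0.4079 for Ndufs7, -0.069 to 0.1446 for Ndufv1 and -0.2361 to 0.2376 for Ndufv2. It gave -0.0678 to 0.034 for Uqcrb, -0.0045 to 0.3648 for Uqcrc2, -0.0544 to 0.1184 for Cox6a1, -0.1087 to 0.0922 for Cox7a2, -0.2309 to 0.0847 for Cox4i2 and -0.4572 to 0.4302 for Cox6a2. It gave -0.027 to 0.2586 for Cox6b1, -0.8264 to 0.2086 for Cox7a1, -0.3122 to 0.5359 for Cox7b2, -0.5786 to 0.0919 for Cox8a, -0.2756 to 0.9013 for Cox8b, -0.3407 to 0.1538 for Cox8c and -0.5734 to 0.0722 for Atp5g1. Leaving out 1 animal moved the difference by over 1.5 times for 42 of the 48 genes. No paired analysis was possible because the groups share no replicate numbers.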

Other observations

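For 7 of 63 members (11.1%) the 3 highest lenses were 1L, 1R and 2L, namely Cox7a1, Cox8b, Ndufa4, Ndufb4, Ndufs4, Uqcrh and Uqcrq. The same held for 8 of 15 skeletal muscle markers (53.3%) and for 2.96% of all genes. These lenses belong to both groups (KO animal 1 and WT animal 2). Ndufs4, an accessory subunit of complex I, was at 2033, 1497, 818 and 422 in KO lenses 1L, 1R, 4L and 7L and at 1916, 878 and 531 in WT lenses 2L, 5L and 6L. Uqcrq, a small subunit of complex III, was at 5701, 3063, 2891 and 1101 in KO and at 3099, 2367 and 1824 in WT. The pattern was singled out after the values had been seen, and the part of muscle RNA in it was not tested.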
